A study of Triticum aestivum with 12 samples.

Results

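Gibberellin signalling was followed here through 6 genes of hexaploid wheat: the 3 homoeologues of the gibberellin receptor gene GID1, named GID1-A (TraesCS1A02G255100), GID1-B (TraesCS1B02G265900) and GID1-D (TraesCS1D02G254500), and the 3 homoeologues of the DELLA gene Rht1, named Rht-A1 (TraesCS4A02G271000), Rht-B1 (TraesCS4B02G043100) and Rht-D1 (TraesCS4D02G040400). Homoeologues are the copies of a gene carried by the A, B and D subgenomes. The members were a given list, found in the data by identifier, 6 of the 107891 genes listed, and all 6 were among the 60326 genes tested, those whose mean TPM exceeded 1 in any of the groups. TPM is an abundance of transcripts normalized for gene length and for the size of the library.

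The study asked how the tissues of the winter wheat cultivar AK58 respond to vernalization, the prolonged cold that winter wheat needs before it flowers. The 12 RNA-seq libraries formed 6 groups of 2: vernalized leaf, vernalized axillary bud and vernalized shoot apex, and the same 3 tissues from plants that had no cold. Plants without cold were sampled 2 weeks after germination, under 16 h of light with 22 °C by day and 19 °C by night. The vernalized groups had spent 1 month at 4 °C in the same light period and then 1 day in the greenhouse, so that cold and age cannot be told apart. All groups share the AK58 genotype, whose alleles at the Rht1 loci are not given in the sources used here. The study calls its replicates biological and, in the sources used here, does not say how many plants went into each library or whether they were grown together, so the p-values cover only the spread between these libraries.

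GID1 is the soluble receptor that binds gibberellin in the nucleus. The DELLA proteins, which Rht1 encodes in wheat, hold back growth and gene expression until the gibberellin-bound receptor recruits them for degradation by the ubiquitin-proteasome system. The semi-dwarf wheats of the Green Revolution carry Rht1 alleles whose proteins resist this degradation, and gibberellin is also known to take part in stem elongation and in the floral transition of cereals. DELLA control acts largely on the protein, which transcript levels do not measure.

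A feature of the whole data set bears on every leaf value. Vernalized leaf had 37248 and 34465 genes above 1 TPM, fewer than the 41519 to 50836 of the other 10 libraries. The median change of all tested genes on the log2(TPM + 1) scale was -0.90 for leaf, 0.29 for axillary bud and -0.06 for shoot apex. After rescaling the libraries by median-of-ratios factors these medians were -0.02, 0.05 and 0, and responses are therefore given below on the deposited scale and, where named, on the rescaled one. In leaf 9761 genes were higher and 35951 lower at an adjusted p under 0.05 as deposited, against 19668 higher and 19419 lower after rescaling.

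Summed over the homoeologues, GID1 was highest in vernalized leaf (133.9 and 96.0 TPM) and lowest in leaf without cold (35.5 and 26.2 TPM). The apex groups lay between 68.0 and 119.8 TPM in 4 libraries. Vernalized axillary bud had 85.6 and 79.9 TPM, against 39.2 and 51.2 TPM in axillary bud. These values are on the deposited scale. On it vernalized leaf, shoot apex, vernalized shoot apex and vernalized axillary bud overlapped one another or lay within the spread of the apex groups. Axillary bud and then leaf stood below them. The overlap with vernalized leaf depended on the scale. After rescaling, vernalized axillary bud minus vernalized leaf was -1.94, -1.38 and -1.46 for GID1-A, GID1-B and GID1-D on the log2(TPM + 1) scale. Vernalized shoot apex minus vernalized leaf was then -1.50, -0.76 and -0.36.

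Rht1 had another order. On the deposited scale its sum was highest in vernalized axillary bud (404 and 364 TPM). Vernalized shoot apex (313 and 278 TPM) and shoot apex (319 and 266 TPM) followed and overlapped each other. The lead of vernalized axillary bud depended on the scale. Vernalized shoot apex minus vernalized axillary bud was 0.05, -0.42 and -0.76 for Rht-A1, Rht-B1 and Rht-D1 on the log2(TPM + 1) scale as deposited. After rescaling it was 0.70, 0.23 and -0.11. The libraries of axillary bud were far apart, at 66.8 and 355 TPM, so that this group overlapped shoot apex at its upper end and vernalized leaf (95.9 and 80.4 TPM) at its lower end. Leaf without cold was lowest, at 14.8 and 17.8 TPM.

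**Figure D1:**
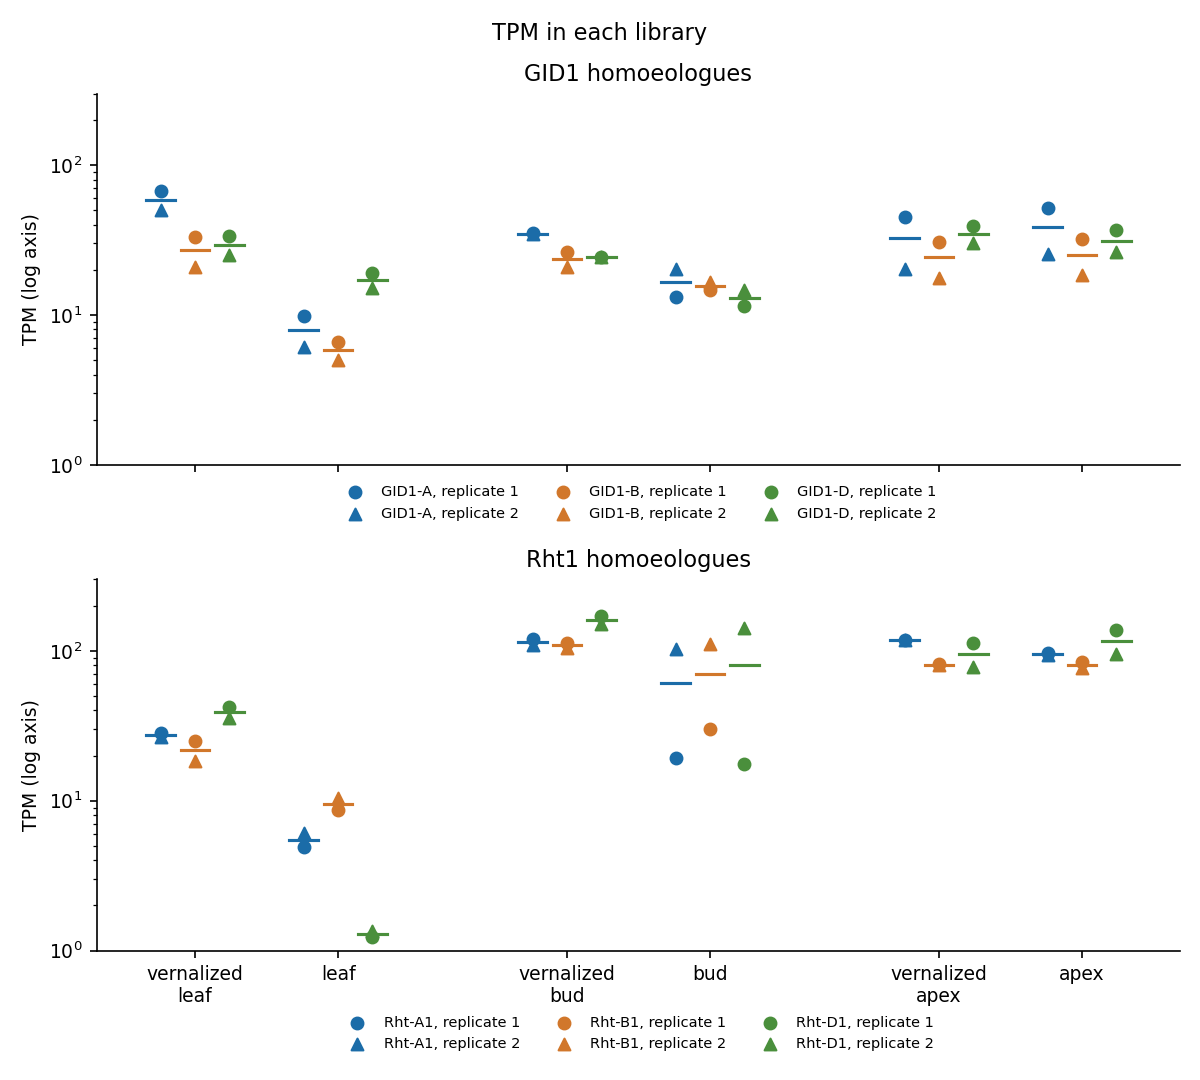
TPM of the GID1 (upper) and Rht1 (lower) homoeologues in the 12 libraries on a log axis; circles are replicate 1, triangles replicate 2 and short bars the mean of 2, with each vernalized group left of the same tissue without cold. Both vernalized leaf libraries lie above both leaf libraries for all 6 genes, a separation not counted over all tested genes. The 2 axillary bud libraries lie far apart for Rht1 only.

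In leaf all 6 genes rose after vernalization. For all 6, both vernalized libraries exceeded both libraries without cold. The share of all tested genes whose groups separate in this way was not counted, here or in later comparisons. All 6 passed limma's moderated test at a Benjamini-Hochberg adjusted p under 0.05. Of the tested genes 16.2% passed that threshold as higher and 59.6% as lower. GID1-A, the receptor gene with the largest change, had 66.9 and 49.9 TPM in vernalized leaf, against 9.81 and 6.07 TPM in leaf. Its change was 2.75 on the log2(TPM + 1) scale (standard error 0.41, adjusted p = 7.75e-05). GID1-B had 33.2 and 21.01 TPM in vernalized leaf, against 6.62 and 4.99 TPM in leaf, a change of 2.02 (standard error 0.34, adjusted p = 0.000184). On the log2(TPM + 1) scale the vernalized replicates, 2 minus 1, differed by -0.42 for GID1-A and by -0.64 for GID1-B. The GID1-B gap was larger in size than that of 92.7% of the tested genes. GID1-D was the most abundant receptor copy in leaf before the cold and changed least, with 33.8 and 25.1 TPM in vernalized leaf, against 19.0 and 15.1 TPM in leaf. The difference of 0.75 (standard error 0.26, adjusted p = 0.0211) was no longer called without vernalized leaf replicate 1 (0.54, adjusted p = 0.144) or leaf replicate 2 (0.59, adjusted p = 0.108).

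The DELLA genes moved in the same direction in leaf, by unequal amounts. Rht-D1, nearly silent in leaf before the cold, had 42.4 and 35.4 TPM in vernalized leaf, against 1.23 and 1.35 TPM in leaf. The change of 4.12 (standard error 0.66, adjusted p = 0.000131) was the largest of the 6 genes and larger than that of 98.7% of the tested genes. Rht-A1 had 28.4 and 26.4 TPM in vernalized leaf, against 4.95 and 6.05 TPM in leaf, a change of 2.13 (standard error 0.53, adjusted p = 0.00292). Rht-B1 had 25.01 and 18.5 TPM in vernalized leaf, against 8.66 and 10.4 TPM in leaf, a change of 1.10 (standard error 0.44, adjusted p = 0.0389). The groups did not overlap for any of the 3.

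The call of Rht-B1 was the least secure. It was lost without a filter on low values (adjusted p = 0.0832), and its adjusted p was 0.189 and 0.0704 without vernalized leaf replicates 1 and 2, 0.163 and 0.0953 without leaf replicates 1 and 2, and 0.0644 and 0.0650 without vernalized axillary bud replicates 1 and 2, with differences between 0.89 and 1.31. The error of the 6-group fit holds the spread between the 2 axillary bud libraries described below. Without axillary bud replicate 1 the same leaf difference of Rht-B1 had an adjusted p of 0.00181, and without replicate 2 one of 0.00174.

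At the thresholds the study used for differential expression, an unadjusted p under 0.01 and a fold change above 2, limma called GID1-A, GID1-B, Rht-A1 and Rht-D1 in leaf. These were 4 of the 6 genes, while 12.3% of the tested genes were called as higher. In this fit of deposited TPM 7421 genes were called as higher and 27842 as lower. The study ran DESeq2 on counts and reported more induced than repressed genes in leaf, so these shares are not the study's. Since most genes had lower TPM in vernalized leaf, the rescaled differences of the members were larger. They were 4.15, 3.38 and 2.19 for GID1-A, GID1-B and GID1-D, and 3.49, 2.51 and 5.26 for Rht-A1, Rht-B1 and Rht-D1, all past an adjusted p of 0.05, where 32.9% of the tested genes passed as higher after rescaling. Bulk leaf tissue does not distinguish a change in the number of cells of a type from a change in the RNA of each cell.

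**Figure D2:**
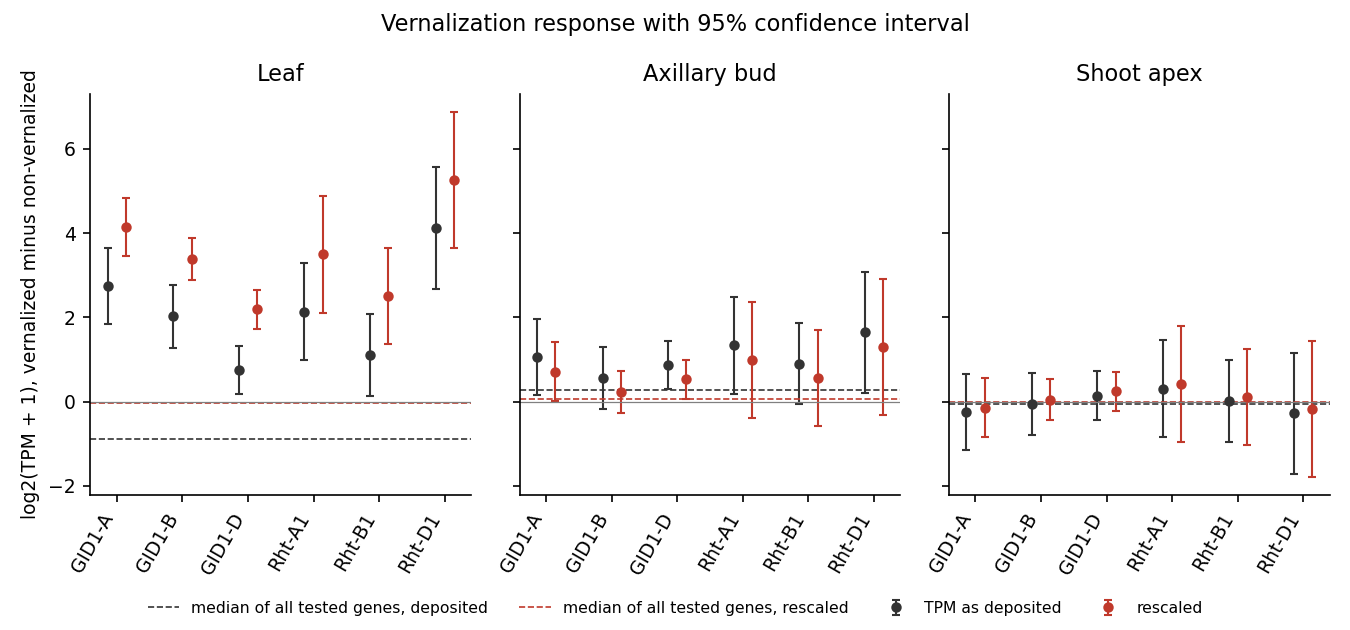
Difference of mean log2(TPM + 1), vernalized minus non-vernalized, for each member in leaf, axillary bud and shoot apex, with the 95% confidence interval of the limma fit; black points are the TPM as deposited, red points the rescaled values, and dashed lines the median of all tested genes. All leaf intervals lie above 0 on both scales, and all shoot apex intervals include 0.

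In axillary bud 1 of the 6 genes passed the test, where 21.2% of the tested genes passed as higher. This was GID1-D, with 24.3 and 24.5 TPM in vernalized axillary bud, against 11.5 and 14.6 TPM in axillary bud, a difference of 0.87 (standard error 0.26, adjusted p = 0.0299). The call was lost after rescaling (0.53, adjusted p = 0.0870) and without any 1 of the 4 bud libraries, where the difference lay between 0.70 and 1.03. The adjusted p was then 0.138 and 0.139 without vernalized axillary bud replicates 1 and 2, and 0.181 and 0.0559 without axillary bud replicates 1 and 2. None of the 6 met the study's thresholds, which 11.4% of the tested genes met as higher.

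The other receptor genes were also higher in both vernalized bud libraries than in both bud libraries without cold, short of the threshold. GID1-A had 35.0 and 34.6 TPM in vernalized axillary bud, against 13.1 and 20.1 TPM in axillary bud (difference 1.05, standard error 0.41, adjusted p = 0.0796). GID1-B had 26.3 and 20.8 TPM in vernalized axillary bud, against 14.6 and 16.5 TPM in axillary bud (difference 0.56, standard error 0.34, adjusted p = 0.245). When the 4 bud libraries were fitted alone, all 3 receptor genes passed, at adjusted p of 0.00901 for GID1-A, 0.0256 for GID1-B and 0.00555 for GID1-D, but in that fit 41.5% of the tested genes passed as higher. GID1-A then met the study's thresholds, as 12.9% of the tested genes did as higher.

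The DELLA genes in axillary bud depended on which library was used. Rht-A1 had 120 and 109 TPM in vernalized axillary bud, against 19.2 and 102 TPM in axillary bud. Rht-B1 had 113 and 105 TPM in vernalized axillary bud, against 29.9 and 110 TPM in axillary bud. Rht-D1 had 171 and 151 TPM in vernalized axillary bud, against 17.6 and 142 TPM in axillary bud. In all 3 cases axillary bud replicate 2 stood close to the vernalized libraries, and above the lower of them for Rht-B1, while replicate 1 stood far below.

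The fitted differences of Rht-A1, Rht-B1 and Rht-D1 were 1.33, 0.90 and 1.64 (standard errors 0.53, 0.44 and 0.66), with adjusted p of 0.0833, 0.156 and 0.0873. Without axillary bud replicate 1 they were 0.16, -0.02 and 0.17. Without axillary bud replicate 2 they were 2.51, 1.83 and 3.12, with adjusted p of 0.000182, 0.00172 and 0.000168. No direction of Rht1 in axillary bud can therefore be given from these libraries.

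The gap between the 2 axillary bud libraries was compared with that of all tested genes. On the log2(TPM + 1) scale replicate 2 minus replicate 1 was 2.35 for Rht-A1, 1.85 for Rht-B1 and 2.94 for Rht-D1. Of the tested genes 0.265% differed more than 4-fold in either direction, and the median absolute difference was 0.162. The receptor genes differed by 0.58, 0.17 and 0.32 for GID1-A, GID1-B and GID1-D, and in vernalized axillary bud the largest difference of a member in size was -0.32, for GID1-B.

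Genes that mark the shoot apex against leaf in these data were read in the same bud libraries. Of the 3659 genes more than 4-fold higher in shoot apex than in leaf both before and after vernalization, 48.2% were higher in replicate 2 of vernalized axillary bud (median difference -0.01), against 69.7% in axillary bud (median difference 0.12). None of them were more than 4-fold higher in replicate 2 of vernalized axillary bud (0%), against 2.57% in axillary bud. The 3036 genes more than 4-fold higher in leaf had a median difference of -0.05 in vernalized axillary bud, against -0.15 in axillary bud. Over all tested genes the median difference was -0.03 in vernalized axillary bud, against -0.07 in axillary bud. More than 4-fold apart in either direction were 0.00166% of all tested genes in vernalized axillary bud, against 0.265% in axillary bud. The part of tissue composition in the Rht1 gap was not tested.

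**Figure D3:**
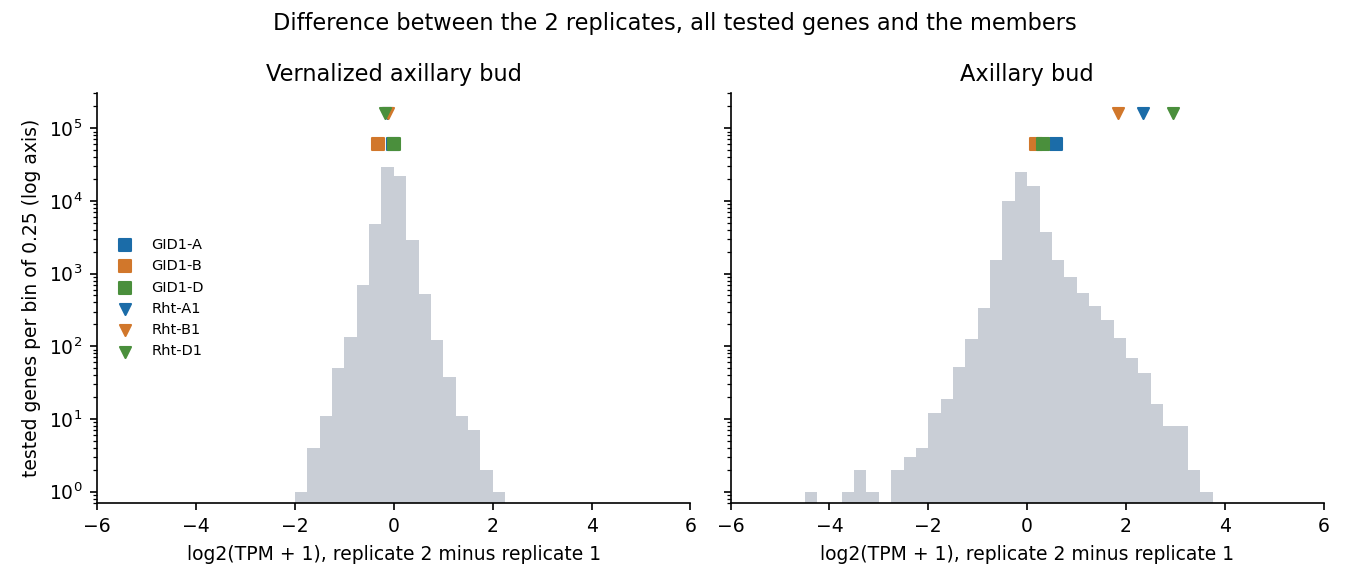
Replicate 2 minus replicate 1 on the log2(TPM + 1) scale in vernalized axillary bud (left) and axillary bud (right); grey bars count the tested genes per bin on a log axis and symbols mark the members (squares GID1, triangles Rht1; their height carries no value). In axillary bud the Rht1 homoeologues lie at 1.85 to 2.94, in the far right tail of all genes.

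In shoot apex none of the 6 genes passed the test, where 1.36% of the tested genes passed as higher and 2.91% as lower. No member had an unadjusted p under 0.05, and all adjusted p from limma were 1. Rht-A1 had 118 and 119 TPM in vernalized shoot apex, against 97.2 and 93.3 TPM in shoot apex, and was the only member whose groups did not overlap (difference 0.31, 95% interval -0.84 to 1.47). Rht-B1 had 81.7 and 80.4 TPM in vernalized shoot apex, against 83.9 and 77.3 TPM in shoot apex (difference 0.01, interval -0.96 to 0.98). Rht-D1 had 113 and 78.5 TPM in vernalized shoot apex, against 138 and 95.6 TPM in shoot apex (difference -0.28, interval -1.72 to 1.16). A rise of the size of the smallest DELLA change in leaf, 1.10, lies inside the intervals of Rht-A1 and Rht-D1 and outside that of Rht-B1. The error behind these intervals holds the axillary bud gap of Rht1, so their width is not that of the apex libraries alone. Replicate 2 minus replicate 1 was 0.004 in vernalized shoot apex and -0.06 in shoot apex for Rht-A1. For Rht-B1 it was -0.02 and -0.12, and for Rht-D1 -0.53 and -0.52.

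The receptor genes in shoot apex varied more between replicates than between conditions. GID1-A had 45.2 and 20.4 TPM in vernalized shoot apex, against 51.3 and 25.4 TPM in shoot apex (difference -0.24, interval -1.14 to 0.66). GID1-B had 30.8 and 17.6 TPM in vernalized shoot apex, against 31.9 and 18.3 TPM in shoot apex (difference -0.05, interval -0.79 to 0.69, and 0.05 after rescaling). GID1-D had 39.2 and 30.0 TPM in vernalized shoot apex, against 36.6 and 26.1 TPM in shoot apex (difference 0.15, interval -0.43 to 0.72). Replicate 1 was above replicate 2 for all 3 genes in both apex groups. This direction was shared by the libraries as a whole. The median of all tested genes, replicate 2 minus replicate 1, was -0.29 in vernalized shoot apex and -0.34 in shoot apex. The GID1-A gaps were wider, at -1.11 and -0.99, larger in size than those of 98.6% and 94.1% of the tested genes. For GID1-B they were -0.77 and -0.77 (92.3% and 83.6%), and for GID1-D -0.37 and -0.47 (55.9% and 57.8%). The intervals treat the libraries as unpaired, while deviations of the same-numbered apex libraries correlated at r = 0.742.

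Averaged over the 3 tissues all 6 genes were higher after vernalization, where 17.7% of the tested genes passed as higher. This average combines unequal responses, since all 6 genes passed in leaf and only GID1-D in axillary bud. In shoot apex none passed, and the differences lay between -0.28 and 0.31, below 0 for Rht-D1, GID1-A and GID1-B. The mean differences were 1.19, 0.84 and 0.59 for GID1-A, GID1-B and GID1-D, and 1.26, 0.67 and 1.83 for Rht-A1, Rht-B1 and Rht-D1, with adjusted p between 0.00145 and 0.0420. The call of Rht-B1 held only without axillary bud replicate 2 (0.98, adjusted p = 0.000512) among the fits that left out a library, and its adjusted p lay between 0.0640 and 0.111 in the other 11. Its difference was 0.36 without axillary bud replicate 1.

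The responses were then compared between tissues by the interaction terms of the same fit. The response was smaller in shoot apex than in leaf for 4 of the 6 genes, where 15.8% of the tested genes passed in that direction. The difference of the responses, apex minus leaf, was -4.40 for Rht-D1 (adjusted p = 0.00164), -2.99 for GID1-A (adjusted p = 0.000946), -2.07 for GID1-B (adjusted p = 0.00275) and -1.82 for Rht-A1 (adjusted p = 0.0486). The call of Rht-A1 held without axillary bud replicate 1 or 2 (adjusted p = 0.000824 and 0.000780) but not without any other library, where the adjusted p lay between 0.0795 and 0.137. The same difference was -1.09 for Rht-B1 and -0.60 for GID1-D, which did not pass as deposited. After rescaling all 6 passed, at -1.94 to -5.44, where 29.5% of the tested genes did so.

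The response in axillary bud was smaller than in leaf for 3 of the 6 genes, where 11.9% of the tested genes passed in that direction. Bud minus leaf was -2.48 for Rht-D1 (adjusted p = 0.0300), -1.70 for GID1-A (adjusted p = 0.0196) and -1.46 for GID1-B (adjusted p = 0.0157). Each of these calls was lost without some libraries. For Rht-D1 these were each leaf, vernalized leaf and vernalized axillary bud library and axillary bud replicate 2, with adjusted p between 0.0607 and 0.0911, and its difference was -1.005 without axillary bud replicate 2 and -3.95 without replicate 1. For GID1-A they were leaf replicate 2, vernalized leaf replicate 1, axillary bud replicate 2 and both vernalized axillary bud libraries (-1.39 to -1.70, adjusted p 0.0582 to 0.0932), and for GID1-B leaf replicate 2, vernalized leaf replicate 1 and vernalized axillary bud replicate 2 (-1.14 to -1.30, adjusted p 0.0648 to 0.0728).

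Rht-A1 and Rht-B1 had bud minus leaf differences of -0.80 and -0.20 with all libraries and of -1.98 and -1.12 without axillary bud replicate 1 (adjusted p = 0.000928 and 0.0229). Without axillary bud replicate 2 they had the opposite sign, at 0.38 and 0.72 (adjusted p = 0.357 and 0.111), so that no direction can be given for these 2 genes. GID1-D had one of 0.12. After rescaling all 6 genes passed with all libraries, at -1.66 to -3.97, where 26.7% of the tested genes did so. Between shoot apex and axillary bud none of the 6 responses passed as different, where 14.7% of the tested genes did so with a smaller response in shoot apex, and the lowest adjusted p was 0.159, for GID1-A, at an unadjusted p of 0.0465.

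Before vernalization the DELLA genes separated leaf from the other tissues. All 3 Rht1 homoeologues were higher in axillary bud than in leaf, by 2.82, 2.48 and 4.50 for Rht-A1, Rht-B1 and Rht-D1 (adjusted p from 9.33e-05 to 0.000622), where 23.1% of the tested genes were called as higher. The differences were 4.00, 3.41 and 5.97 without axillary bud replicate 1, and 1.64, 1.56 and 3.03 without replicate 2. Of the receptor genes GID1-B was higher in axillary bud (1.29, adjusted p = 0.00596), but not without leaf replicate 2 (1.12, adjusted p = 0.0537). GID1-A and GID1-D did not pass, with differences of 0.98 (adjusted p = 0.0578) and -0.36 (adjusted p = 0.255). After rescaling GID1-A passed (1.495, adjusted p = 0.00202) and GID1-D was at 0.21 (adjusted p = 0.408), where 36.7% of the tested genes were called as higher.

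All 6 genes were higher in shoot apex than in leaf before vernalization, where 26.4% of the tested genes were called as higher. The differences were 3.89, 2.96 and 5.66 for Rht-A1, Rht-B1 and Rht-D1, and 2.09, 1.90 and 0.83 for GID1-A, GID1-B and GID1-D. GID1-D lost its call without leaf replicate 2 (0.67, adjusted p = 0.0791) or shoot apex replicate 1 (0.59, adjusted p = 0.101). Between shoot apex and axillary bud GID1-D passed as deposited, at 1.19 (adjusted p = 0.00535), where 14.1% of the tested genes were called as higher in shoot apex. After rescaling GID1-A and GID1-B passed too, at 1.29 and 0.79 (adjusted p = 0.00993 and 0.0189), where 21% of the tested genes were called. Without axillary bud replicate 1 the deposited difference of GID1-D was 1.03 (adjusted p = 0.0597), and without replicate 2 the 3 Rht1 genes passed beside it, at 2.25, 1.40 and 2.64 for Rht-A1, Rht-B1 and Rht-D1.

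After vernalization Rht1 was still higher in axillary bud than in leaf on the deposited scale, and GID1 was not. Rht-A1, Rht-B1 and Rht-D1 differed by 2.02, 2.28 and 2.02 (adjusted p = 0.00373, 0.000472 and 0.0135), where 62.1% of the tested genes were called as higher. The call of Rht-D1 was lost without vernalized leaf replicate 2 (1.89, adjusted p = 0.0822) and without vernalized axillary bud replicate 1 or 2 (1.93 and 2.11, adjusted p = 0.0757 and 0.0559). GID1-A, GID1-B and GID1-D differed by -0.71, -0.17 and -0.25, and none passed.

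These comparisons with vernalized leaf depended on the scale. After rescaling Rht-A1, Rht-B1 and Rht-D1 differed between the vernalized bud and leaf by 0.80, 1.07 and 0.79 and did not pass, whereas GID1-A, GID1-B and GID1-D were lower in vernalized axillary bud, at -1.94, -1.38 and -1.46, and passed, where 33.6% of the tested genes were called as lower. On both scales the bud minus leaf differences of the receptor genes were below those of the DELLA genes, an order that was not tested.

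Vernalized shoot apex was also compared with vernalized leaf. Rht-A1 and Rht-B1 were higher in vernalized shoot apex by 2.07 and 1.87 (adjusted p = 0.00386 and 0.00242), where 46.8% of the tested genes were called as higher, and by 1.49 and 1.29 after rescaling, where 43% were. Rht-D1 differed by 1.26 (adjusted p = 0.106), and passed without axillary bud replicate 1 or 2 (adjusted p = 0.00199 and 0.00189). GID1-A, GID1-B and GID1-D differed by -0.90, -0.17 and 0.23 and did not pass, while after rescaling GID1-A and GID1-B passed as lower, at -1.50 and -0.76, where 34.8% of the tested genes were called as lower. Between vernalized shoot apex and vernalized axillary bud none of the 6 passed as deposited, where 4.34% of the tested genes were called as higher, and GID1-D passed after rescaling (1.10, adjusted p = 0.00524), where 10.9% were.

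The homoeologues of each gene were compared within libraries, where the scale of a library cancels apart from the effect of the pseudocount on low values. Differences of log2(TPM + 1) between homoeologue pairs were fitted with limma over 1690 expressed triads, sets of A, B and D copies, which gave 5070 pairs. In leaf the vernalization response differed for all 6 member pairs, where 41.1% of the tested pairs did so. The Rht-D1 response exceeded those of Rht-B1 and Rht-A1 by 3.02 (adjusted p = 0.000140) and 1.99 (adjusted p = 0.000269), and the Rht-B1 response fell short of that of Rht-A1 (-1.03, adjusted p = 0.00117). The GID1-D response fell short of those of GID1-A (-2.0, adjusted p = 0.000305) and GID1-B (-1.27, adjusted p = 0.000530). GID1-B minus GID1-A was -0.73 (adjusted p = 0.0153) and lost its call without leaf replicate 2 or vernalized leaf replicate 2 (-0.59 and -0.62, adjusted p = 0.0902 and 0.0944). After rescaling all 6 pairs still passed, and Rht-D1, which was near 1 TPM in leaf, exceeded Rht-B1 and Rht-A1 by less, 2.76 and 1.77.

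The make-up of each triad in leaf showed this as shares of summed TPM. Rht-D1 made up 44.3% and 44.1% of Rht1 in vernalized leaf, against 8.29% and 7.57% in leaf. Rht-B1 made up 26.1% and 23.0% in vernalized leaf, against 58.4% and 58.4% in leaf, while the share of Rht-A1 was 29.6% and 32.9% in vernalized leaf, against 33.4% and 34.0% in leaf. The leading DELLA copy was thus Rht-D1 in vernalized leaf and Rht-B1 in leaf.

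The leading receptor copy also differed between the leaf groups. GID1-A made up 49.9% and 51.9% of GID1 in vernalized leaf, against 27.7% and 23.2% in leaf. GID1-D made up 25.3% and 26.2% in vernalized leaf, against 53.7% and 57.7% in leaf. The D copies thus moved in opposite directions in share, up for the DELLA gene and down for the receptor. Near-identical homoeologues can exchange reads when they are counted, and how the counting treated reads that fit several copies is not given in the sources used here.

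**Figure D4:**
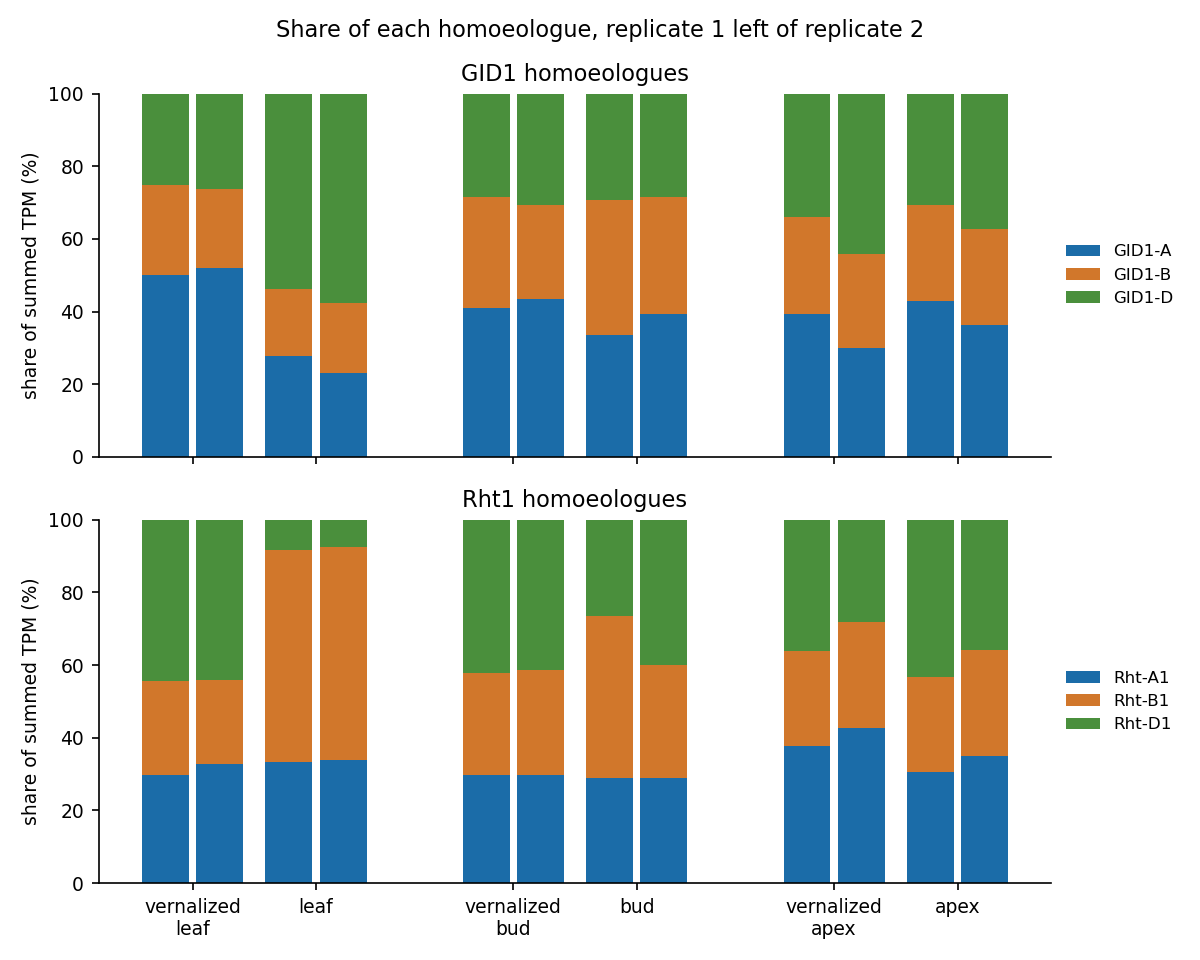
Share of each homoeologue in the summed TPM of GID1 (upper) and Rht1 (lower) in the 12 libraries, replicate 1 left of replicate 2, with each vernalized group left of the same tissue without cold. Leaf without cold stands out with a Rht-D1 share of 7.57% to 8.29% and a GID1-D share of 53.7% to 57.7%.

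In axillary bud and shoot apex no member pair differed in its response, 0 of 6 in each by limma, where 9.51% and 2.19% of the tested pairs did so. At an unadjusted p under 0.05 there were 3 such member pairs in axillary bud, Rht-B1 minus Rht-A1 (-0.43), Rht-D1 minus Rht-B1 (0.74) and GID1-B minus GID1-A (-0.49), and 1 in shoot apex, Rht-D1 minus Rht-A1 (-0.59). Without axillary bud replicate 2 the Rht1 pairs B minus A and D minus B passed in axillary bud (-0.68 and 1.29, adjusted p = 0.0353 and 0.0238). Axillary bud replicate 1 had Rht-A1, Rht-B1 and Rht-D1 shares of 28.8%, 44.8% and 26.4%, against 28.8%, 31.1% and 40.1% in replicate 2.

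Averaged over the 6 groups, the level of GID1-B was below those of GID1-A (-0.50, adjusted p = 2.68e-05) and GID1-D (D minus B 0.37, adjusted p = 0.000104), where 78.7% of the tested pairs differed. This mean hides differences between groups, since in axillary bud GID1-B held 37.2% and 32.3% of GID1, against 29.3% and 28.5% for GID1-D and 33.5% and 39.2% for GID1-A. GID1-D and GID1-A did not differ past the threshold (-0.13, adjusted p = 0.125). None of the Rht1 pairs differed in mean level, with differences of -0.02, -0.07 and -0.05 for B minus A, D minus A and D minus B.

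The balance of receptor to DELLA transcripts, the ratio of summed GID1 to summed Rht1 TPM, is given as a description. It was 1.40 and 1.19 in vernalized leaf, against 2.39 and 1.47 in leaf. It was 0.212 and 0.220 in vernalized axillary bud, against 0.586 and 0.144 in axillary bud. It was 0.367 and 0.245 in vernalized shoot apex, against 0.376 and 0.262 in shoot apex. Receptor transcripts thus outnumbered DELLA transcripts in the 4 leaf libraries and not in the other 8. The conditions overlapped in axillary bud and shoot apex. In leaf both vernalized ratios lay below both without cold, the nearest being 1.40 and 1.47.

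**Figure D5:**
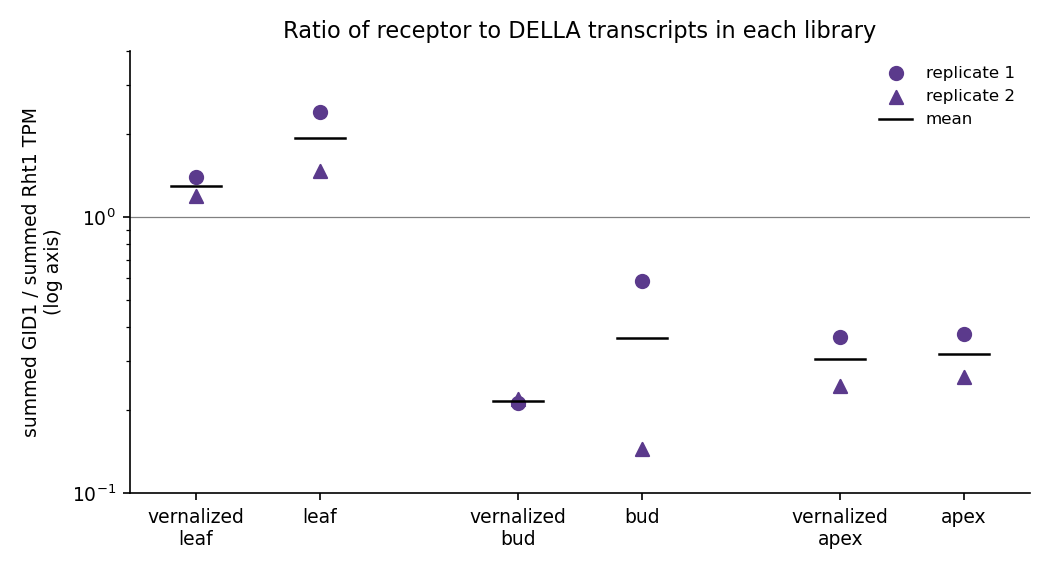
Ratio of summed GID1 to summed Rht1 TPM in each library on a log axis, with each vernalized group left of the same tissue without cold; circles are replicate 1, triangles replicate 2, black bars the mean of 2 and the grey line a ratio of 1. The 4 leaf libraries lie at 1.19 to 2.39 and the 8 bud and apex libraries at 0.144 to 0.586.

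The homoeologues followed one another unequally over the 12 libraries, which share tissues and conditions, so that correlations are descriptions. Pearson's r of log2(TPM + 1) was 0.973 between Rht-A1 and Rht-B1, 0.970 between Rht-A1 and Rht-D1 and 0.937 between Rht-B1 and Rht-D1. For the receptor it was 0.945 between GID1-A and GID1-B, 0.770 between GID1-A and GID1-D and 0.701 between GID1-B and GID1-D. GID1-B ranked 16 among the 60325 other tested genes by likeness to GID1-A, and GID1-D ranked 1259. Rht-B1 and Rht-D1 ranked 44 and 66 by likeness to Rht-A1.

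The genes most like the mean of the Rht1 triad were TraesCS4D02G228300 and TraesCS5A02G243100 (r = 0.993 for both, 12 libraries). TraesCS4D02G228300 had group means of 4.16 TPM in vernalized leaf against 0.0572 TPM in leaf, which is near the floor. In vernalized axillary bud its mean was 29.8 TPM, against 11.2 TPM in axillary bud. Each is a mean of 2 libraries, and the separate axillary bud values are not given, so no direction in bud is read from them. The genes most like the mean of the GID1 triad were TraesCS7A02G533000 (r = 0.968) and TraesCS1A02G382200 (r = 0.961). TraesCS7A02G533000 averaged 12.5 TPM in vernalized leaf against 1.44 TPM in leaf, and 7.10 TPM in vernalized shoot apex against 6.74 TPM in shoot apex.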

How the data were processed

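RNA-seq was measured in 12 libraries. The authors trimmed reads with fastp 0.21.0, mapped them to IWGSC RefSeq v1.0 using hisat2, sorted the result with SAMtools 1.3.1 and calculated TPM with TPMCalculator. Each library's deposited TPM were taken from there. TPM keep no number of reads, so the reads behind a gene's value are unknown and no counting interval or detection limit was given. The authors' counts and DESeq2 results were not used in the fits.

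A gene was tested if any group's mean exceeded 1 TPM. Using limma 3.58.1 in R 4.3.3, log2(TPM + 1) was modelled by the 6 groups, with a variance trend and no replicate term, which left 6 residual degrees of freedom. A difference on this scale understates the change of low genes. Tests were two-sided, p-values were adjusted by Benjamini-Hochberg over all genes tested, and a gene passed at an adjusted p under 0.05. With 2 libraries a group, an exact permutation test cannot reach this threshold. Homoeologue pairs were fitted over triads of a list at hand in part, to which GID1 was added, and those with a copy above 1 TPM were kept. The limma fits of single genes and of homoeologue pairs were tested on simulated data, and the descriptive steps were not. Figures were drawn with matplotlib 3.10.9 in Python 3.11.15.

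The alternatives were a pseudocount of 0.1, no filter, a mean above 5 TPM, median-of-ratios scaling (21695 genes, factors 0.530 to 1.75), each tissue alone, a block for the replicate number, no trend, all 3 homoeologues above 1 TPM, and leaving out each library. A replicate block within each tissue, one with crossed shoot apex numbers, and rescaling of the homoeologue pairs were chosen after seeing the data.

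The members and lists were chosen with earlier results of these data known. All 6 members were named, and for each triad the 2 other tested genes with the highest Pearson's r to its mean. Of the reference table, 0 entries matched the identifiers, so other gibberellin genes, tissue markers and sequences were not used, the tissue labels were not checked by markers, and the names GID1 and Rht1 came with the member list.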

Additional observations from a re-analysis of the deposited data

Results flagged for a closer look

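The vernalization response differed between tissues, by the interaction term of the limma fit at an adjusted p under 0.05, for 4 of the 6 genes. How many of all tested genes differed in any pair of tissues was not counted. In axillary bud minus leaf the difference of the responses was -2.48 for Rht-D1, -1.70 for GID1-A and -1.46 for GID1-B. Of the tested genes 11.9% passed in that direction. In shoot apex minus leaf the difference was -4.40 for Rht-D1, -2.99 for GID1-A, -2.07 for GID1-B and -1.82 for Rht-A1, where 15.8% of the tested genes passed as lower. All 7 values had the same sign after rescaling, which made them larger in size, and no difference between shoot apex and axillary bud passed. No test of a single deviating library was run, and the axillary bud gap of Rht1 is given in the report as values only.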

How the results depend on the processing

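Of 1150 values of single genes and pairs recomputed under an alternative, 1059 kept direction and call, 66 lost the call, 11 gained one and 14 changed sign. The ratio of GID1 to Rht1 in axillary bud was 0.586 or 0.144 with 1 library left out, against a mean of 0.365. After rescaling 0 members passed in axillary bud, where 8802 of 59825 tested genes passed as higher. A smaller response in axillary bud than in leaf was called for 6, and for 26.7% of the tested genes. In shoot apex against axillary bud before vernalization 3 were higher, as were 21% of the tested genes. In vernalized axillary bud against vernalized leaf 0 were higher, where 26120 of 59825 tested genes were. On this scale GID1-B in shoot apex turned to 0.049 and the mean level of Rht-D1 minus Rht-B1 to 0.00082. In axillary bud 3 members passed with that tissue fitted alone, where 41.5% of the tested genes passed as higher. The study's thresholds were then met by 1 member, and by 12.9% of the tested genes as higher. Without a filter on low values Rht-B1 lost its leaf call and its averaged call. The same-numbered libraries' deviations correlated between -0.109 and 0.742 over 15 pairs of groups, which with 2 libraries a group does not establish a pairing. The highest r was that of the apex groups. With a block within each tissue no member passed there either (lowest adjusted p 0.788). Of the 60326 tested genes 976 then passed as higher and 2207 as lower. With a replicate block 2 members passed as higher in shoot apex than in axillary bud before vernalization, where 9109 of 60326 tested genes did. With the shoot apex numbers crossed, a pairing chosen after seeing the data, 1 did, where 8476 tested genes did. With a replicate block within each tissue, also chosen after seeing the data, 3 did, where 10895 tested genes did. In axillary bud that block gave 2 members passing and 1 at the study's thresholds, where 19717 and 7018 tested genes were called as higher. Leaving out a library gave between 0 and 3 genes passing in axillary bud, between 0 and 3 at the study's thresholds there, between 0 and 5 with a smaller response in axillary bud than in leaf, between 0 and 4 higher in shoot apex than in axillary bud before vernalization, and between 0 and 2 homoeologue pairs with unequal responses in axillary bud. It moved Rht-B1 in axillary bud between -0.022 and 1.83. In shoot apex it moved Rht-B1 between -0.049 and 0.067, GID1-A between -0.80 and 0.31, GID1-B between -0.44 and 0.33 and GID1-D between -0.090 and 0.38. It moved the mean level of Rht1 between -0.064 and 0.020 for B minus A and between -0.14 and 0.045 for D minus B. The cause of these shifts was not tested. With TPM alone, how far read depth limits a value is unknown.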
